A study of Homo sapiens with 2 samples.

Results

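The genes described here encode the human topoisomerases measured in the study, with 2 of their partners: TOP1, TOP1MT, TOP2A, TOP2B, TOP3A and TOP3B, the repair enzyme TDP1, and RMI1, which works with TOP3A. Their rows were found by gene symbol, each gene by 1 probe set, and all 8 were among the 18769 genes detected. The set of genes was drawn up with earlier results of these data known. AGS cells, a line established from a human stomach adenocarcinoma, received 100 nM LBH589 for 24 h or served as the control, and total RNA of each was put on an expression array. The control's treatment is labelled none but its title calls it control treated, so whether it received a vehicle is not settled. LBH589, or panobinostat, inhibits histone deacetylases of several classes. With 1 array in each group, no difference below has an error, a test or a p-value, and differences are described by size. A difference of 2-fold or more, a log2 ratio of LBH589 over control beyond 1 in either direction, is called higher or lower.

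Topoisomerases cut DNA, let strands pass or turn, and reseal the break, which frees DNA of the twists and tangles left by replication, transcription and chromosome separation. While the cut is open the enzyme is joined to the DNA end through a tyrosine, and drugs that hold it there turn the enzyme into a lesion. Camptothecins such as irinotecan and topotecan trap TOP1, and anthracyclines such as doxorubicin and epirubicin, like etoposide, trap TOP2A and TOP2B, so that the level of the target bears on how cells respond to these drugs. In stomach cancer both drug families are in use.

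Among the 8 genes, TOP2A was the only one past 2-fold, and it was lower in the treated cells. The other 7 had log2 ratios between -0.37 and 0.67. TOP2B, the second anthracycline target, and TOP1, the camptothecin target, both stayed within 2-fold, TOP2B on the lower side of the control and TOP1 on the higher side. Of the 8 genes, 1 was 2-fold lower and 0 were 2-fold higher, where 4.86% of all detected genes were 2-fold lower and 4.90% were 2-fold higher. Detected genes include dim ones below a background of 4.36, set from olfactory receptor probe sets. With the floor at this background 13447 genes were detected, of which 6.67% were 2-fold lower and 6.60% 2-fold higher. The median log2 ratio of the 8 was 0.06, that of all detected genes 0.00. The log2 ratios of 3 members, TOP1MT, TDP1 and RMI1, lay between the quartiles of all detected genes, -0.21 and 0.24, and those of the other 5 lay outside them. By definition, as many of all detected genes lie outside these quartiles as between them.

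**Figure D1:**
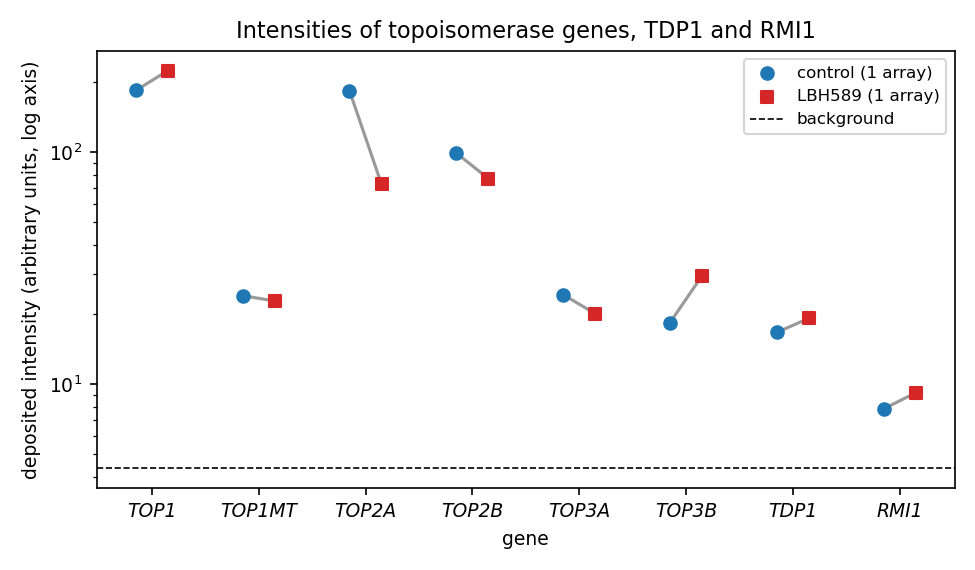
Deposited intensity (arbitrary units, log axis) of the 8 genes on the control array (circles) and the LBH589 array (squares), 1 array each, with the background of 4.36 as a dashed line. All 8 genes were above background on both arrays, and TOP2A had the steepest difference, from 184 to 72.7; heights of different genes are not comparable, since each comes from its own probes.

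The sequences just before the transcription starts of the 3 nuclear drug targets are shown because these genes differ in their ratios. Each is the stretch of 250 bases before the start in RefSeq's annotation of GRCh38.p14, read in the direction of the gene. Capitals mark the CCAAT box, searched as CCAAT on either strand and therefore as CCAAT or ATTGG; it is the motif of the factor NF-Y, long known at the TOP2A promoter. TOP2A lies on the minus strand at chr17:40417897-40418146, TOP2B on the minus strand at chr3:25664908-25665157, and TOP1 on the plus strand at chr20:41028572-41028821.
TOP2A: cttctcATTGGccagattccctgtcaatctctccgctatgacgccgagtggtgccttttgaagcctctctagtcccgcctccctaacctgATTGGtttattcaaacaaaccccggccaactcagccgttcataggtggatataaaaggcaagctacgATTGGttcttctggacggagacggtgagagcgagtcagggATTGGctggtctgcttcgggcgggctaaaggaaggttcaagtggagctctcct
TOP2B: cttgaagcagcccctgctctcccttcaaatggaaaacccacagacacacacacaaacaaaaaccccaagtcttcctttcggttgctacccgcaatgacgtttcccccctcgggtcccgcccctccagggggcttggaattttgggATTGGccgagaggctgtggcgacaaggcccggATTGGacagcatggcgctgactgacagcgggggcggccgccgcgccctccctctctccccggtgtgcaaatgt
TOP1: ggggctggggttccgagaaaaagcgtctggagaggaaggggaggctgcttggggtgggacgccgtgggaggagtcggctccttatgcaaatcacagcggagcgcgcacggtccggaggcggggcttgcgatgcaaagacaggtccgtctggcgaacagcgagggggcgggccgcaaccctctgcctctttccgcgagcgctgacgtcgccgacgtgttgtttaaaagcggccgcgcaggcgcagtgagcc
The TOP2A window held 4 matches, all as ATTGG, whose first bases lay 244, 160, 93 and 53 bases before the start. The TOP2B window held 2, at 105 and 73 bases, and the TOP1 window held 0. At least 4 matches were found in 307 of 35116 such windows (0.874%), and at least 2 in 9.53%. The windows of TOP3A, TOP3B and TDP1 held 0, and a second annotated start of TOP2B also had 0. No window of TOP1MT was examined. RMI1 had 2 before one annotated start and 0 before the other. A second motif, TTTGAA on either strand (TTTGAA or TTCAAA, sharing no letters with CCAAT matches here), is a form of the CHR element of cell cycle genes. The TOP2A window held 2 of these, a count that 1.72% of all windows reached, and the windows of TOP2B and TDP1 held 1 each. These are matches of letters, and binding was not measured.

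TOP2A makes the type II topoisomerase of dividing cells, which untangles sister chromosomes before they part and whose level climbs towards mitosis. Its intensity was 184 on the control array and 72.7 on the LBH589 array. The LBH589 value was 60.5% below the control, a 2.53-fold difference and a log2 ratio of -1.34. Only 2.64% of all detected genes had a log2 ratio as low or lower. Among the 2232 genes whose mean intensity was within 2-fold of that of TOP2A, 5.69% had a log2 ratio as low or lower, and 9.81% were 2-fold lower, where 4.86% of all detected genes were. In RNA from a whole culture, fewer dividing cells and less TOP2A RNA in each cell cannot be told apart.

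TOP2B makes the other type II enzyme, which is present in dividing and resting cells and acts mainly in transcription. Its intensity was 99.1 without and 76.9 with LBH589, a log2 ratio of -0.37. The log2 ratio of TOP2A was lower than that of TOP2B by -0.97, so within this pair of arrays the ratio of TOP2A to TOP2B signal was 1.96 times lower after LBH589. TOP2B lay below the control by 22.4%, and 16.5% of detected genes had a lower log2 ratio.

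TOP1 makes the nuclear type I enzyme that relaxes DNA ahead of polymerases. Its intensity was 184 on the control array and 225 on the LBH589 array, a log2 ratio of 0.28. That is 21.8% above the control, and 77.8% of detected genes had a lower ratio. TOP1 and TOP2A thus went opposite ways, with a difference of -1.62 between the log2 ratio of TOP2A and that of TOP1. The ratio of TOP2A to TOP1 signal was 3.08 times lower on the LBH589 array.

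TOP1MT encodes the mitochondrial relative of TOP1, which relaxes mitochondrial DNA. It had 24.1 and 22.8, the smallest difference of the 8 genes, with a log2 ratio of -0.08. The log2 ratio of TOP1 exceeded that of TOP1MT by 0.36, and neither gene came near 2-fold.

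TDP1 removes TOP1 that has been trapped on DNA by cutting the bond between its tyrosine and the DNA end, and it counters camptothecins. Its intensity was 16.7 without and 19.3 with LBH589, a log2 ratio of 0.20. TOP1 and TDP1 had log2 ratios that differed by 0.08. The enzyme and the repair factor for its trapped form were therefore both slightly above the control and within 2-fold.

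TOP3A, the type IA topoisomerase that works with the BLM helicase to separate recombined DNA molecules, had 24.3 and 20.1, a log2 ratio of -0.27. RMI1, the scaffold that holds TOP3A and BLM together, had 7.84 and 9.19, a log2 ratio of 0.23. The RMI1 values were near the background of 4.36, where small differences in signal give large ratios. TOP3A and RMI1 lay on opposite sides of the control, with log2 ratios that differed by -0.50.

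TOP3B, which acts on RNA as well as DNA in a complex with TDRD3, had the highest log2 ratio of the 8. Its intensity was 18.4 on the control array and 29.3 on the LBH589 array, a 1.59-fold difference and a log2 ratio of 0.67. At a size of 1.5-fold, TOP3B would be the only member called higher, where 11.7% of all detected genes were at least 1.5-fold higher. The log2 ratio of TOP3A was lower than that of TOP3B by -0.94, a 1.92-fold gap. The gap of the type II pair was 1.96-fold, so both pairs stayed short of a 2-fold gap. With 50 added to every intensity the log2 ratio of TOP3B was 0.21 and that of TOP3A was -0.08.

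**Figure D2:**
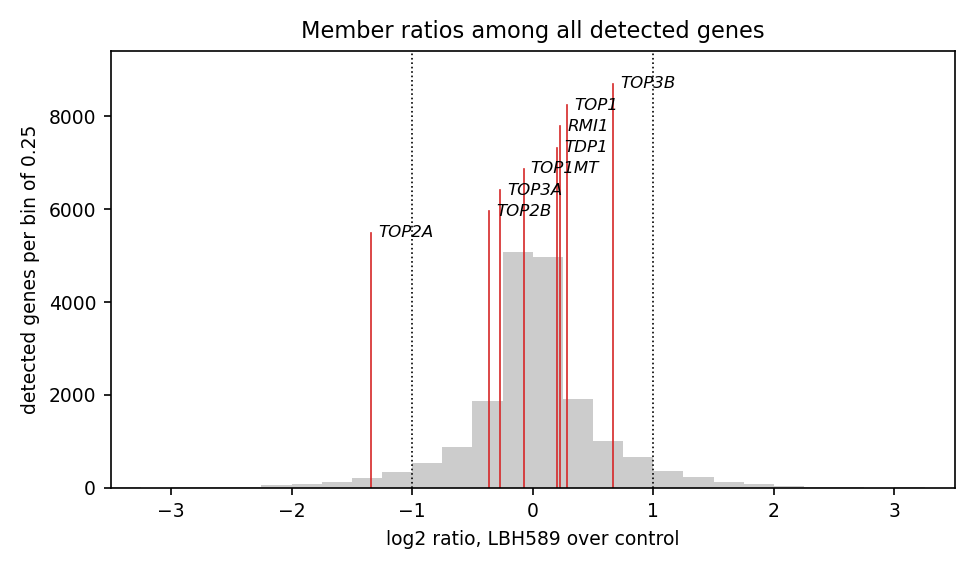
Number of detected genes in bins of 0.25 of the log2 ratio of LBH589 over control, with the ratios of the 8 genes as labelled lines and 2-fold as dotted lines. TOP2A, at -1.34, lies outside the dotted lines, and the other 7 genes lie between -0.37 and 0.67.

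Only other scalings and an added constant could move these ratios, since each gene has 1 probe set with signals above background. With the arrays centred on their medians or quantile normalized, TOP2A had log2 ratios of -1.32 and -1.36, TOP2B of -0.35 and -0.39, TOP1 of 0.30 and 0.26, and TOP3B of 0.69 and 0.70. Adding 50 to every intensity brought all 8 ratios closer to 0, and TOP2A was then at -0.93, short of 2-fold.

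**Figure D3:**
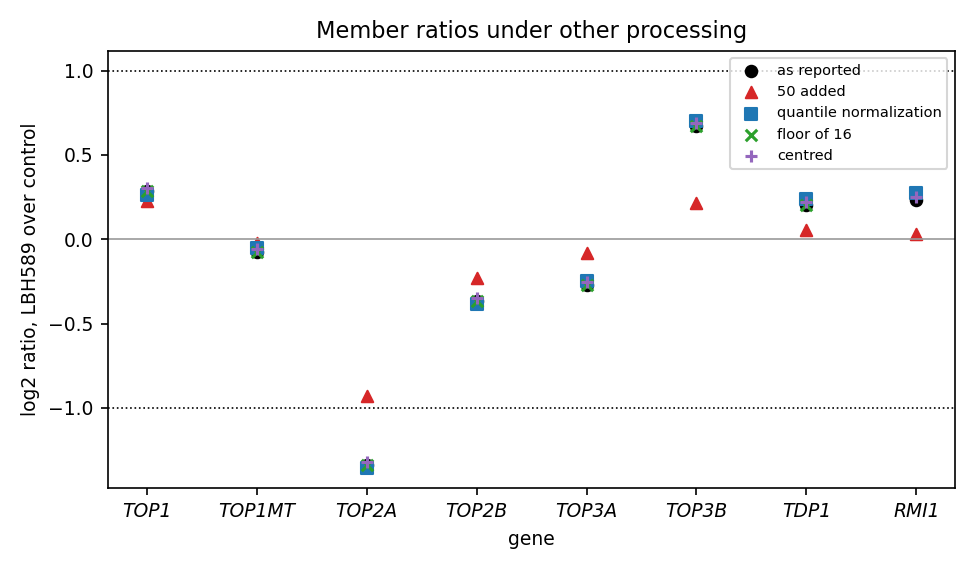
Log2 ratio of LBH589 over control for each gene as reported (black circles) and under 4 other ways of processing, with 2-fold as dotted lines. The points of a gene lie together except with 50 added (triangles), where TOP2A is at -0.93 and TOP3B at 0.21.

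TOP2A was next set against genes of dividing cells, a list of 18 such genes that included MKI67, CCNB1, PLK1 and PCNA. Of these, 10 were 2-fold lower, where 4.86% of all detected genes were, and 0 were 2-fold higher, where 4.90% were. Among genes with a mean intensity within 2-fold of that of TOP2A, 9.81% were 2-fold lower. The median log2 ratio of the 18 was -1.07. TOP2A, at -1.34, stood inside their range of -2.92 to 0.70, with 6 of the 18 genes at a lower ratio and 12 at a higher one. MKI67, which marks cycling cells, had 110 and 14.6, and the mitotic kinase PLK1 had 141 and 23.3. The cyclin CCNA2 was 4.40-fold lower (73.5 and 16.7) and the spindle checkpoint kinase BUB1B was 3.38-fold lower (55.9 and 16.5). With 50 added, 2 of the 18 were 2-fold lower, where 0.778% of all detected genes were. CCNA2 (-0.89) and BUB1B (-0.67) were then short of 2-fold, while MKI67 (-1.31) and PLK1 (-1.38) were not. The genes above 0 numbered 2, PCNA (268 and 434), the sliding clamp of replication, and RRM2 (58.4 and 74.5), a subunit of ribonucleotide reductase. These 2 genes were named after their values were seen.

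Factors known to bind the TOP2A promoter were a list of 9, of which 2 were 2-fold lower and 0 were 2-fold higher. The shares of all detected genes were 4.86% and 4.90%. The median log2 ratio of the list was -0.35. MYBL2, a cell cycle transcription factor, was among the lower ones at 2.48-fold (108 and 43.8). With 50 added, MYBL2 was at -0.76 and 0 of the list were 2-fold lower, beside 0.778% of all detected genes. Of the subunits of NF-Y, the factor of the CCAAT box capitalised above, NFYA had 55.5 and 59.9, NFYB had 15.6 and 12.9, and NFYC had 38.5 and 21.6, a log2 ratio of -0.83. SP1 and SP3, which bind GC-rich stretches, had log2 ratios of -0.42 and -0.35. The NF-Y subunits, SP1 and SP3 were thus all within 2-fold. RB1, named after its value was seen, lay above the control (52.7 and 86.1) and also within 2-fold. Of the 9 factors, 6 lay below the control.

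The CCAAT count of the TOP2A window was then set against all genes, a comparison chosen after these values were seen. Of 207 detected genes with at least 4 matches before a start, 8.21% were 2-fold lower and 9.18% were 2-fold higher. Of 8104 detected genes with 0 matches, 5.39% were 2-fold lower and 4.75% were 2-fold higher. With 1, 2 and 3 matches, 4.84%, 5.04% and 4.39% were 2-fold lower and 5.37%, 7.99% and 8.78% were 2-fold higher. The bearing of the motif on the TOP2A ratio was not tested.

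TOP2A lies on chromosome 17 near ERBB2, the gene of the HER2 receptor, and both are co-amplified in some tumours, so neighbours were examined in gene order. Of 22 genes of the ERBB2 to TOP2A stretch and its edges, 3 were 2-fold lower and 1 was 2-fold higher, with a median log2 ratio of 0.03. Among all detected genes, 4.86% were 2-fold lower and 4.90% were 2-fold higher. ERBB2 was 5.88-fold lower (68.7 and 11.7), MED24, a Mediator subunit, was 2.39-fold lower (59.9 and 25.1), and TNS4, a focal adhesion gene, was 2.08-fold lower (229 and 110). The higher gene was GSDMB (listed as GSDML), a gasdermin gene with 3.81 and 7.62. Its control value was below background, so it was at least 1.75-fold higher, and with the floor at background 0 of the 22 genes were 2-fold higher. The immediate neighbours of TOP2A, GJD3 and IGFBP4, had log2 ratios of 0.03 and 0.03. CDC6, a replication licensing factor, had 134 and 151, and the retinoic acid receptor RARA had 7.78 and 9.55. The lower genes were spread through the stretch, with TNS4 next but 1 to TOP2A. MSL1, a gene between MED24 and TOP2A that is outside the list and was picked out for its value, had 35.3 and 10.5, a log2 ratio of -1.75. Copy number was not measured. With 50 added, ERBB2 was at -0.94, MED24 at -0.55 and TNS4 at -0.80, all short of 2-fold.

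**Figure D4:**
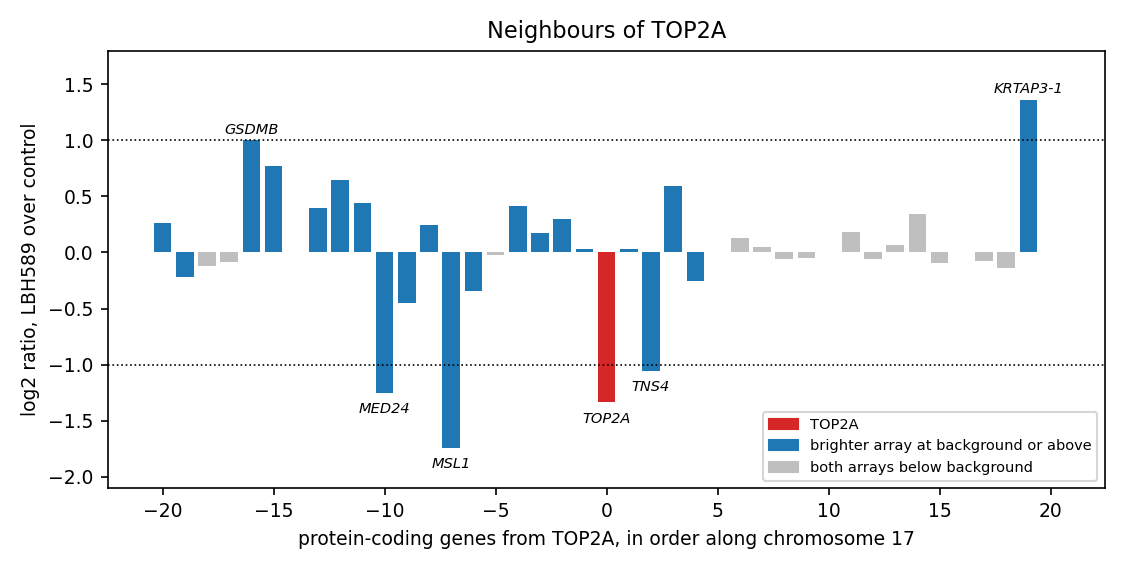
Log2 ratio of LBH589 over control for detected genes among the 20 protein-coding genes on each side of TOP2A, in their order along chromosome 17 and not to scale, with 2-fold as dotted lines. TOP2A (red) is at -1.34, its immediate neighbours are near 0, and grey bars are genes below background on both arrays.

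Partners of TOP3A and TOP3B were a list of 9, and 0 of them were past 2-fold in either direction, with a median log2 ratio of 0.38. The shares of all detected genes were 4.86% lower and 4.90% higher. BLM, the helicase of the TOP3A complex, had 10.9 and 14.2, and RMI2 (listed as C16orf75), the partner of RMI1, had 10.3 and 11.8. TOP3A lay below the control and RMI1, RMI2 and BLM above it, all of them dim and within 2-fold. With 50 added their log2 ratios were -0.08, 0.03, 0.03 and 0.08, and the median of the list was 0.08. TDRD3, which brings TOP3B to its RNA and chromatin targets, had 5.78 and 4.21, the LBH589 value being below background. Its ratio was on the opposite side of the control from that of TOP3B. Brighter genes of the list lay on both sides, FXR1 (147 and 289) and FXR2 (42.4 and 66.9) above the control and FMR1 (75.5 and 57.8) below it. FXR1, FXR2 and FMR1 were named after their values were seen.

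The meiotic relatives of topoisomerase VI were a pair of genes. TOP6BL (listed as C11orf80) was 2.51-fold lower (17.03 and 6.79), a log2 ratio of -1.33, which was -0.24 with 50 added and -0.09 with intensities below 16 raised to 16. SPO11, which cuts DNA in meiosis, was below the detection floor on both arrays.

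Genes that process and repair trapped topoisomerases were a list of 22, of which 21 were detected. Of these, 2 were 2-fold lower and 3 were 2-fold higher, beside 4.86% and 4.90% of all detected genes. The median log2 ratio of the list was 0.14. TDP2 (listed as TTRAP), the counterpart of TDP1 for TOP2, had 57.0 and 74.4, a log2 ratio of 0.38. SPRTN (listed as C1orf124), a protease that digests proteins joined to DNA, had 48.8 and 88.8, a log2 ratio of 0.86. TDP1, TDP2 and SPRTN were all on the higher side of the control and all within 2-fold, but 8 of the 21 detected genes of the list lay below it. With 50 added TDP1, TDP2 and SPRTN had log2 ratios of 0.05, 0.22 and 0.49. The lower genes were FAM111A, a protease of trapped TOP1, at 2.80-fold (106 and 38.0) and NBN, of the MRE11 complex, at 2.34-fold (21.96 and 9.39). The higher genes were POLB, a polymerase of base excision repair, at 2.52-fold (19.9 and 50.3), the nuclease subunit ERCC1 at 2.22-fold (22.4 and 49.8), and MRE11 (listed as MRE11A), the nuclease partner of NBN, at 2.02-fold (9.76 and 19.7). MRE11 was named after its value was seen. With 50 added, FAM111A (-0.83), NBN (-0.28), POLB (0.52) and ERCC1 (0.46) were short of 2-fold, and NBN was at -0.46 with the floor of 16. SLFN11, whose level is known to go with sensitivity to drugs that trap topoisomerases, was below the detection floor on both arrays.

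Transporters of anthracyclines and camptothecins were a list of 14, of which 2 were 2-fold lower and 0 were 2-fold higher. The shares of all detected genes were 4.86% and 4.90%. The median log2 ratio of the list was -0.11, but 5 of the 14 were below background on both arrays. With the floor at background the median over 9 genes was -0.34. ABCC4, an efflux pump, was 2.40-fold lower (82.3 and 34.2), and the nucleoside carrier SLC28A3 was at least 1.77-fold lower (7.71 and 3.42), the LBH589 value being below background. With the floor at background only ABCC4 was 2-fold lower. ABCC1, a pump of anthracyclines, had 53.7 and 36.2, a log2 ratio of -0.57. ABCB1 (2.48 and 2.97) and ABCG2 (2.80 and 3.10), the pumps best known for exporting doxorubicin and topotecan, were below background on both arrays. With 50 added, ABCC4 was at -0.65 and SLC28A3 at -0.11.

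Enzymes that convert anthracyclines and irinotecan were a list of 17, of which 14 were detected. Of these, 2 were 2-fold lower and 4 were 2-fold higher, beside 4.86% and 4.90% of all detected genes. The median log2 ratio of the list was 0.04. AKR1B1, an aldo-keto reductase, was 3.94-fold higher (94.4 and 371), and POR, which passes electrons to cytochromes P450, was 2.61-fold higher (90.7 and 237). Both were still past 2-fold with 50 added, at log2 ratios of 1.55 and 1.03. NQO1, a quinone reductase, was 2.43-fold lower (203 and 83.7). UGT1A1, which inactivates the active form of irinotecan, was 3.03-fold lower (17.02 and 5.62), but it shares exons with other UGT1A genes, so its probes may not tell them apart. NQO1 was at -0.92 and UGT1A1 at -0.27 with 50 added, and UGT1A1 was at -0.09 with the floor of 16. The other higher genes, named after their values were seen, were the carbonyl reductase CBR1 at 2.08-fold (22.1 and 45.8) and AKR1C3, a reductase with close relatives, at 3.81 and 8.67. The control value of AKR1C3 was below background, so it was at least 1.99-fold higher, and with the floor at background 3 genes of the list were 2-fold higher. The irinotecan-activating esterase CES2 had 26.2 and 21.9.

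**Figure D5:**
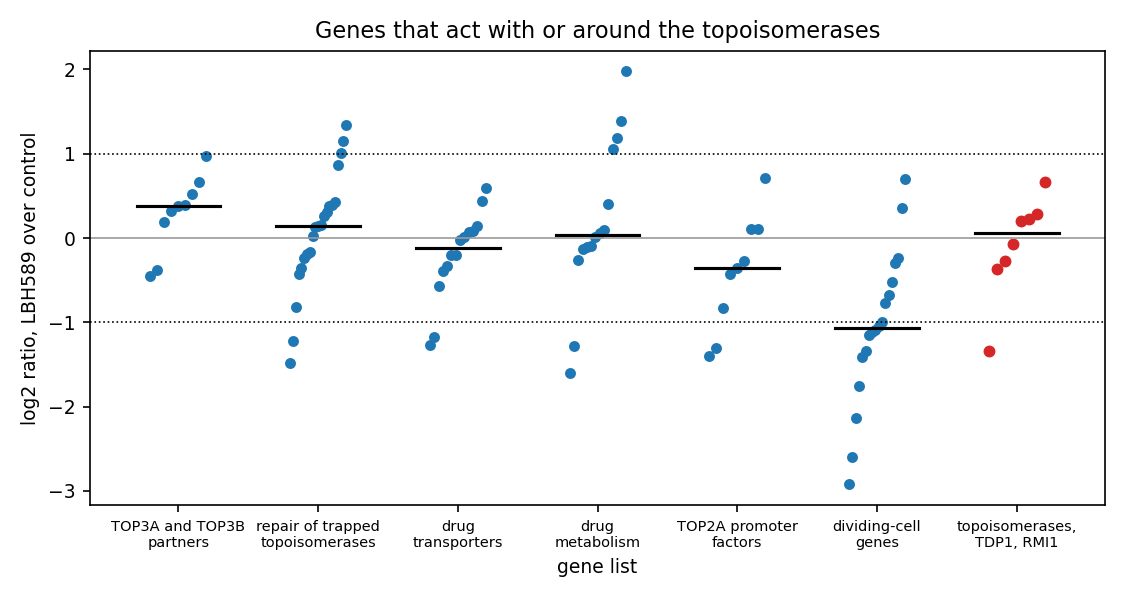
Log2 ratio of LBH589 over control for each detected gene of 6 lists (blue) and for the 8 genes described here (red), with the list median as a bar and 2-fold as dotted lines. The dividing-cell genes have the lowest median, -1.07, and TOP2A is the lowest red point at -1.34.

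The 5 genes whose intensities were nearest to those of TOP2A on both arrays, by distance in log2 intensity, included VAMP8 (0.08), UCK2 (0.13), ACOT9 (0.13) and CDK6 (0.17). For TOP1 the 5 were CNOT7 (0.04), TAF10 (0.05), SNRNP200 (0.05), SEC23B (0.07) and TIMM50 (0.07). For TOP2B the 5 were MYEOV (0.03), YTHDF3 (0.05), FBXO7 (0.05), SERINC2 (0.06) and RAD23B (0.06). With 2 arrays this is nearness of a pair of values only. Each gene is measured by its own probes, so near intensities do not mean like RNA levels.

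Of the epithelial markers used to check the labelled cell line, 5 of 5 (EPCAM, KRT8, KRT18, KRT19 and CDH1) were above background on both arrays. Of 10 markers of other cell types, 4 reached background on the control array and 3 on the LBH589 array. The summed intensity of the 9 detected markers was 63.4 and 73.9. Of this COL1A1, named after its value was seen, had 26.6 and 38.8, well above background. None of these 9 markers was past 2-fold, and the part of other cell types in the ratios above was not tested.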

How the data were processed

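RNA of 1 control and 1 LBH589 culture was labelled with biotin, per the labels' protocols. The authors deposited a normalized intensity on a linear scale for 33297 probe sets, summarised with RMA's gene-level default per the file headers, although the submitters' processing notes name MAS5. The fold deposited by the authors is LBH589 over control, and it matched the quotient of both intensity columns to a relative difference of 1e-08. Neither the array design nor the software versions are given in the sources used here. The number of arrays limits the precision.

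Symbols were updated with RefSeq (GRCh38.p14), by accession for 18255 probe sets, by symbol for 1113 and by an older symbol for 1037, and 1459 kept the listed name. Of a gene's probe sets the brightest on average was used. Intensities below percentile 20 (2.95) were raised to it, a gene was detected if its brighter array reached it, and log2 ratios were taken of the resulting values. Background is percentile 95 of 450 olfactory receptor probe sets (4.36). Where the dimmer array was below it, the fold is against background and written as at least. A log2 ratio has no test with 1 array a group.

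The members, gene lists and rule for named genes were chosen with earlier results of these data known. The rule named the 8 members, 12 genes of interest and, per list, up to 4 with the largest log2 ratios past 2-fold. Some genes that these rules name are not reported here. Alternatives are given below. Python 3.11.15, numpy 2.4.6, pandas 2.3.3 and matplotlib 3.10.9 were used.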

Additional observations from a re-analysis of the deposited data

How the results depend on the processing

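With 50 added to both intensities, log2 ratios shrank to -0.93 for TOP2A, -0.084 for TOP3A, 0.21 for TOP3B, 0.054 for TDP1 and 0.033 for RMI1, and 0 of the 8 genes were 2-fold lower, where 0.778% of all detected genes were. At a size of 3-fold 0 of the 8 were lower, where 1.74% of all detected genes were, and at 1.5-fold 1, TOP3B, was higher. Among the 122 detected genes of the related lists, 22 were 2-fold lower, 10 of them dividing-cell genes, and 9 were 2-fold higher. The shares of all detected genes were 4.86% lower and 4.90% higher. With 50 added the list counts were 2 and 2, beside 0.778% and 0.714% of all detected genes. A size of 3-fold gave 6 lower and 1 higher, beside 1.74% and 1.44%. At 1.5-fold 18 were higher, beside 11.7%. No other setting tried (the probe set rule, centring, quantile normalization, no floor, a floor at background or at 16, detection on both arrays, the authors' deposited fold, and the series matrix values, which equal the deposited intensities in all 33297 probe sets) moved a count over the 8 genes, or the pooled count over the lists, by more than 1.5 times. Counts of single lists did move. With the floor at background, the transporters had 1 gene lower in place of 2 and the neighbours of TOP2A had 0 higher in place of 1. The drug metabolism list then had 3 higher in place of 4. With the floor of 16 these 3 counts were the same, and the meiotic pair had 0 lower in place of 1. The repair list had 1 lower and 2 higher in place of 2 and 3, and the drug metabolism list also had 1 lower in place of 2. No member gave another direction under any of them, but RMI1 was below the floor of 16 on both arrays and has no value there. For the 8 genes most of these settings could change nothing, since each has 1 probe set above background, and only centring and quantile normalization were a check. No paired analysis was possible because each group has 1 array. Replicate error, dim signals near the background of 4.36 and cross-hybridisation between related genes limit these values.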

Other observations

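A few genes named for contact with topoisomerases were looked up after the results were seen. TOPBP1, a scaffold of replication and checkpoint signalling found through its binding to TOP2B, had 79.9 and 42.0 on the control and LBH589 arrays, 1.90-fold lower. TOPORS, a ubiquitin and SUMO ligase that binds TOP1, had 14.4 and 10.5. PATL1, whose yeast relative was found through topoisomerase II, had 111 and 100.4.

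Within 20 protein-coding genes on each side of TOP2A, 37 were detected, of which 3 were 2-fold lower and 2 were 2-fold higher. Of all detected genes, 4.86% were 2-fold lower and 4.90% were 2-fold higher. Many of the 37 were below background on both arrays. GSDMB, counted as higher, was at least 1.75-fold higher, since its control value was below background. The lowest of the 37 was MSL1, a subunit of a histone acetyltransferase complex. KRTAP3-1, a hair keratin-associated gene picked out for its value, had 4.30 and 11.1, at least 2.54-fold higher since the control value was below background.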
